A study of Saccharomyces cerevisiae with 12 samples.

Results

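The last step of a doxycycline series, in budding yeast with RAP1 under a doxycycline-controlled promoter, ran from 0.1 to 0.5 µg/mL. RAP1 RNA itself was called lower than the control at 0.5 µg/mL only. Over this step the RNA response kept its shape for nearly all genes, while the heat-shock chaperone genes came part of the way back down. The step was described for 4976 of the 5085 genes in the 2 tables concerned. A gene was kept when all of its levels were above 0 and the higher of its 2 doxycycline levels was at least 5; 29 genes fell out for a level of 0 and 80 for low levels. For each gene the log2 ratio to the control was taken at each dose, the median of the kept genes was subtracted, and the value at 0.1 µg/mL was subtracted from the value at 0.5 µg/mL. This difference is called the centred step below; a positive value means a gene stood higher at 0.5 than at 0.1 µg/mL relative to the other genes.

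All groups were the haploid MATa strain TH_5234 in log phase, with pRAP1::kanR-tetO7-TATA, URA3::CMV-tTA, his3-1, leu2-0 and met15-0. The control group had no doxycycline and the other groups had 0.01, 0.1 or 0.5 µg/mL, with 3 samples in each of the 4 groups, and the step rests on the 6 samples of the upper 2 doses. RNA was measured by polyA sequencing, and each level is the authors' pooled FPKM (fragments per kilobase of transcript, scaled to the library) of a group. Pooled levels carry no SD, the depth is unknown, and the step has no replicate check and no p-value; a change of at least 1.5-fold (0.58 on the log2 scale) is given as a size, not as a test. The only tests are the authors' own comparisons of a dose with the control, and calls of higher or lower rest on their q at a threshold of 0.05.

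Rap1 binds DNA before ribosomal protein and glycolytic genes, which it activates, and helps to silence telomeres and the silent mating loci; yeast cannot live without it. In this tet-off design the activator tTA drives the promoter and doxycycline releases it, and the control carries both transgenes. Yeast answers misfolded proteins through Hsf1, which binds heat-shock elements before chaperone genes, and general stress through Msn2 and Msn4, which bind stress response elements before genes of carbohydrate storage and protection. Another regulator, Rpn4, drives the proteasome genes.

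RAP1 itself (YNL216W) had a centred step of -0.22, lower than that of most genes, since 6.41% of the kept genes had a step at or below it. In the authors' deposited tables its level was 31.5 FPKM in the control, 33.3 at 0.01, 31.0 at 0.1 and 22.0 at 0.5 µg/mL. RAP1 was called at 0.5 µg/mL only (log2 fold change -0.52, q = 0.00764, in the authors' deposited table). The a-cell genes STE2 and BAR1 were present at both doses, at 988 and 746 FPKM for STE2 and 137 and 107 FPKM for BAR1 in the authors' deposited tables. The alpha-cell receptor gene STE3 was at 17.1 and 14.2 FPKM in the authors' deposited tables. The control columns of the upper 2 tables differed by at most 0.0027 on the log2 scale for any kept gene, so the shared control adds almost nothing to the step.

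Most genes hardly moved. The centred step had an SD of 0.18 over genes, and the middle 90% of genes lay between -0.24 and 0.27. Relative to the typical gene 50 genes moved by 1.5-fold or more, of which 29 stood higher (0.583% of the kept genes) and 21 lower (0.422%), and 4926 stayed within that range. Under a looser limit of 0.32 on the log2 scale, 152 genes stood higher (3.05%) and 122 lower (2.45%). Below these centred values lies a shift of all genes: the median log2 ratio to the control was -0.03 at 0.1 and -0.30 at 0.5 µg/mL, so that without centring the typical gene stood 17.4% lower at the highest dose, and 12 genes stood higher and 134 lower by 1.5-fold. Whether that shift is one of RNA per cell or of scaling cannot be told apart from these levels, and directions below are relative to the typical gene. Just past the 1.5-fold limit were RIE1 (-0.60) and LCL1 (0.59), and just short of it were the polyamine transporter gene TPO4 and the gene BUD19 (-0.58 and 0.58).

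**Figure D1:**
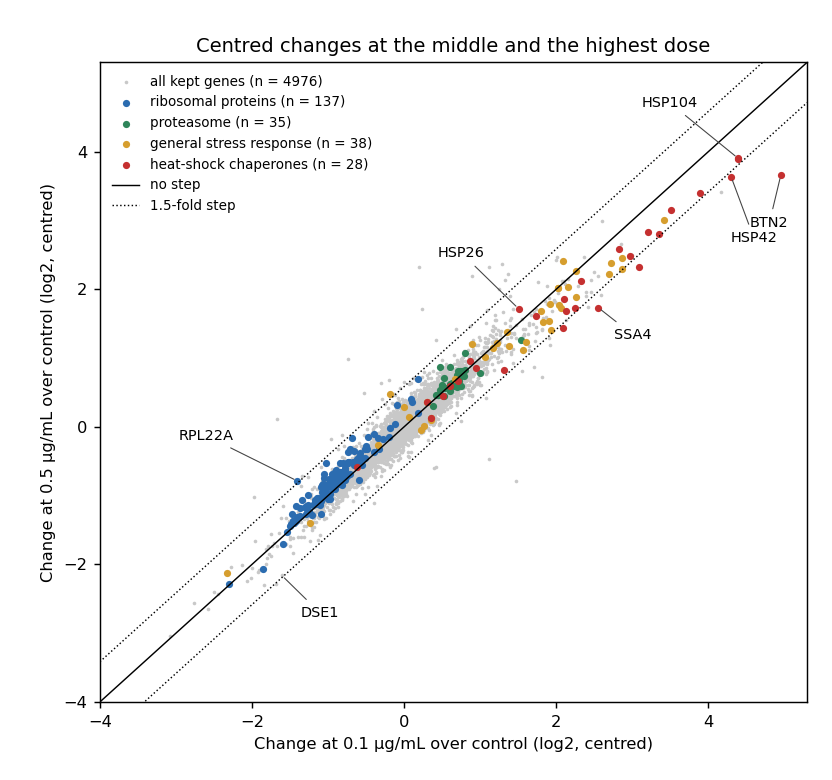
Centred log2 change over the control at 0.1 µg/mL (horizontal axis) and at 0.5 µg/mL (vertical axis), with 1 point for each of the 4976 kept genes and 4 gene lists in colour. Points below the diagonal stood lower at 0.5 µg/mL. The chaperone genes BTN2, HSP42 and SSA4 lie past the lower dotted line of a 1.5-fold step, while HSP104 lies below the diagonal but short of that line. The ribosomal protein genes lie mostly just above the diagonal.

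The authors' calls changed far more than the centred values. Over all tested genes, the share called higher was 17.6% at 0.1 and 7.49% at 0.5 µg/mL, and the share called lower was 20.4% and 38.9%. Among the kept genes, 937 were called lower at 0.5 µg/mL and not at 0.1, yet their median centred step was only -0.07 and 2 of them, BSC1 and FMP48, moved by 1.5-fold. Likewise 512 genes were called higher at 0.1 µg/mL and no longer at 0.5, with a median centred step of -0.06, and 2 of them moved by 1.5-fold. No gene was called higher at one of these doses and lower at the other. In the other direction 14 genes lost a call of lower and 2, the spliceosome gene NTC20 and the iron-response gene TIS11, gained a call of higher.

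The largest steps back among genes that had risen included those of chaperone genes. Of 885 kept genes called higher at 0.1 µg/mL, 14 (1.58%) stood at least 1.5-fold lower at the step, against 0.422% of all kept genes, and 4 stood at least 1.5-fold higher. Those 14 make up the larger share of the 21 genes on the low side; the other 7 had not been called at 0.1 µg/mL. The level at 0.1 µg/mL enters both the earlier call and the step, so that error in it favours turning back. With the call at 0.01 µg/mL instead, whose doxycycline samples are not in the step, 15 of 442 genes (3.39%) turned back, among them the same 14. Of those 442 genes 68.6% had a step below 0, against 54.7% of all kept genes, with a median of -0.09.

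BTN2 (YGR142W), which encodes a sorting factor for misfolded proteins, turned back furthest among them. In the authors' deposited tables its level was 30.8 FPKM in the control, 676 at 0.01, 940 at 0.1 and 316 at 0.5 µg/mL. It thus fell below its level at the lowest dose, with a centred step of -1.30, or 2.46-fold lower. The stress-inducible Hsp70 gene SSA4 (YER103W) peaked earlier. In the authors' deposited tables SSA4 went from 73.2 FPKM in the control to 541, 423 and 198 over the doses, a centred step of -0.82. SIS1 (YNL007C), an essential J-domain partner of Hsp70, went from 294 to 1741, 2451 and 1199 FPKM in the authors' deposited tables (step -0.76).

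The same course was seen for the disaggregase gene of mitochondria and for a small heat-shock gene. HSP78 (YDR258C) went from 19.0 FPKM in the control to 223, 335 and 164 in the authors' deposited tables, a step of -0.75. HSP42 (YDR171W), whose product gathers misfolded proteins, went from 115 to 1636, 2234 and 1162 FPKM in the authors' deposited tables, a step of -0.67. APJ1 (YNL077W), a J-domain gene, went from 30.4 to 104, 127 and 67.1 FPKM in the authors' deposited tables (step -0.65). Each of these levels at 0.5 µg/mL was still above the control, with the authors' q at 0.000273 in the authors' deposited table for HSP78, HSP42 and APJ1 alike.

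The other 8 genes that turned back were not chaperone genes in the lists used. They were MGA1 (-0.83), whose product resembles heat-shock factors; CIP1 (-0.74), an inhibitor of the cyclin-dependent kinase; and VHS1 (-0.73), a protein kinase gene. TDA6 (-0.69), PIC2 (-0.67), a mitochondrial phosphate and copper carrier gene, and RIE1 (-0.60) followed. ZPR1 (-0.67), which helps to fold a translation elongation factor, and HAP4 (-0.66), the activating subunit of the respiratory gene regulator, were no longer called at 0.5 µg/mL. Their levels in the authors' deposited tables were 222, 410, 368 and 191 FPKM for ZPR1, and 128, 274, 266 and 139 FPKM for HAP4, from the control to the highest dose.

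Turning back was partial on the centred scale. Without centring, the level of ZPR1 at 0.5 µg/mL was below that of the control, and the levels of the other genes were above theirs. All 14 centred changes at 0.5 µg/mL were still above 0 and all were below those at 0.01 µg/mL; 11 of the genes were highest at 0.1 µg/mL, and SSA4, ZPR1 and HAP4 were highest at 0.01. The share of the centred log2 rise at 0.1 µg/mL that remained at 0.5 ran from 11.6% for ZPR1 to 84.5% for HSP42, with a median of 68.7%. MGA1 and RIE1 are neighbours on chromosome VII, and the next gene to them, SOL4, lay just short of the limit (-0.56).

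**Figure D2:**
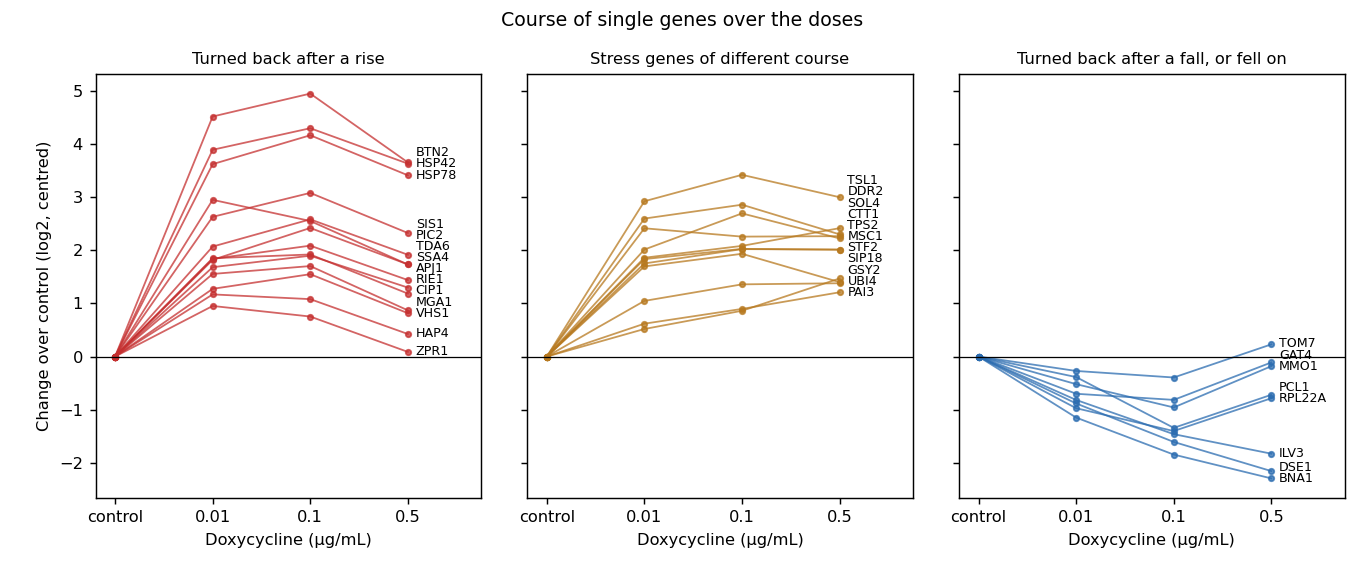
Centred log2 change over the control for single genes at each dose (horizontal axis, doxycycline in µg/mL; vertical axis, log2), 1 line per gene, from pooled levels without error bars; names are stacked in the order of the values at 0.5 µg/mL. The 14 genes on the left turn down after 0.1 µg/mL or before it; the stress genes in the middle turn down (GSY2, TPS2), stay level (CTT1, STF2) or stand higher (SIP18, PAI3, DDR2); on the right, 5 genes turn up and DSE1, BNA1 and ILV3 continue down.

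Over the whole list of 28 cytosolic heat-shock chaperone and co-chaperone genes the median centred step was -0.37, against -0.02 over all kept genes. All 28 were kept; 24 had a step below 0, 15 stood lower by 0.32 or more (2.45% of all genes did) and none stood higher by that much. The list's median centred change was 1.89, 2.19 and 1.73 over the doses, and 25 members were called higher at 0.1 and 22 at 0.5 µg/mL. Of all tested genes 17.6% were called higher at 0.1 and 7.49% at 0.5 µg/mL. Grouped by role after the values were seen, the 3 J-domain genes had a median of -0.65 and the 6 Hsp70 and Hsp110 genes one of -0.37. The 7 Hsp90 co-chaperone genes had a median of -0.07, although STI1, the organiser of Hsp70 and Hsp90, was among them with -0.49.

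Abundant members moved less than BTN2 but in the same direction. The disaggregase gene HSP104 had a step of -0.48; its levels in the authors' deposited tables were 85.9, 1116, 1771 and 1046 FPKM from the control upwards. The inducible Hsp90 gene HSP82 had a step of -0.50, with 81.4, 1050, 1684 and 982 FPKM in the authors' deposited tables. SSA1 and SSA2, near-identical Hsp70 genes between which reads may be split, had steps of -0.37 and -0.38. Exceptions included the small heat-shock gene HSP26, with 0.21 (-0.06 without centring), and HSP12 with 0.07. In the whole list 4 members had a step above 0, and the Hsp90 co-chaperone genes reached 0.09. The Hsp110 gene SSE1, with -0.01, hardly moved. In mitochondria MDJ1 (-0.50) and HSP60 (-0.47) went with HSP78, whereas the co-chaperonin gene HSP10 had 0.24 (-0.03 without centring).

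Upstream sequence was read for the 4928 kept protein-coding genes, over 500 bases before the start codon in the R64 assembly of RefSeq. A heat-shock element of 3 alternating units (TTC, any 2 bases, GAA, any 2 bases, TTC, or its reverse complement) was found in 74 of them (1.5%). It was found in 5 of the 14 genes that turned back by 1.5-fold (35.7%) and in 15 of the 72 that did so under the looser limit (20.8%). The 5 stretches below are shown because they belong to those 5 genes; each is 60 bases long and written 5′ to 3′ on the strand of the gene, with the matches in capitals (overlapping matches run together).

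BTN2: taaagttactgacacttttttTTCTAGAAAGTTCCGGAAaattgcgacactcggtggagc
SIS1: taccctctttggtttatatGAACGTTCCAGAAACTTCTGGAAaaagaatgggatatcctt
HSP78: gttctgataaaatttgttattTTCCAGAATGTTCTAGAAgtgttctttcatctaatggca
HSP42: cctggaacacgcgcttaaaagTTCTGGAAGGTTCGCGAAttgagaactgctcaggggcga
ZPR1: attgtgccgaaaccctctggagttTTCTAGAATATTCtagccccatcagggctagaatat

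They lie at chrVII:772089-772148 (plus strand) for BTN2, chrXIV:619869-619928 (minus) for SIS1, chrIV:974452-974511 (minus) for HSP78, chrIV:806357-806416 (plus) for HSP42 and chrVII:914997-915056 (plus) for ZPR1. SIS1 has 3 matches in its stretch, BTN2, HSP78 and HSP42 have 2 each, and ZPR1 has 1. SSA4 and APJ1 have no match of these letters in the window.

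The element was more frequent among the genes that turned back than among all genes called higher. Of 881 protein-coding genes called higher at 0.1 µg/mL, 30 have it (3.41%), and their median centred step was -0.30, against -0.04 for the 851 without it. Under the looser limit 15 of the 30 turned back, as did 57 of the 851 (6.70%). Taking genes called higher at 0.01 µg/mL instead, whose doxycycline samples are outside the step, the 24 with the element had a median of -0.37 and the 416 without it one of -0.08. These counts describe the genes, were chosen after the chaperone genes were known to turn back, and carry no test. Some genes have the element and did not turn back, and 3 of them are shown for comparison.

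AHA1: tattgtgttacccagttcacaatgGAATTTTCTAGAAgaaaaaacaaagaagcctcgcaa
HSP10: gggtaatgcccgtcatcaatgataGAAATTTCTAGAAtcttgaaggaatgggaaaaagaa
UBI4: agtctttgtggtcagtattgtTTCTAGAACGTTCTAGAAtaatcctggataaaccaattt

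AHA1, a gene for an Hsp90 activator (chrIV:892550-892609, plus), had a step of -0.12; HSP10 (chrXV:370969-371028, minus) had 0.24; and the polyubiquitin gene UBI4 (chrXII:65553-65612, minus) had 0.02. UBI4 has 2 matches, as many as BTN2 and HSP78, and AHA1 and HSP10 have 1 each.

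**Figure D3:**
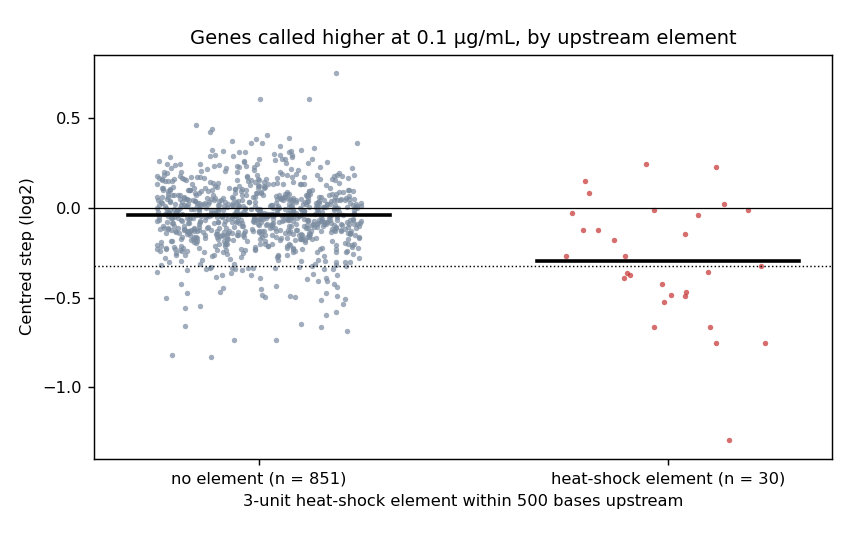
Centred step (vertical axis, log2) of the 881 protein-coding genes called higher at 0.1 µg/mL, split by whether a heat-shock element of 3 units lies within 500 bases upstream; points are genes, spread sideways for legibility, bars are medians (-0.04 and -0.30) and the dotted line is the looser limit of 0.32 downward. Of the 30 genes with the element 15 lie at or below that line, and points of both sets overlap.

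General stress genes took different courses. The list of 38 kept genes of the Msn2 and Msn4 type had a median centred step of -0.15; 11 stood lower and 2 higher by 0.32 or more, and its median centred change was 1.42, 1.58 and 1.31 over the doses. The members lower by that much included genes of carbohydrate storage. GSY2, the main glycogen synthase gene (-0.53), SOL4, a gene of the pentose phosphate pathway (-0.56), TPS2 and TSL1, genes of the trehalose synthase complex (-0.47 and -0.42), and PNC1, which encodes nicotinamidase (-0.41), were among them. In the authors' deposited tables TPS2 went from 90.5 FPKM in the control to 349, 577 and 344, and GSY2 from 101 to 311, 378 and 216.

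The storage lists as a whole leaned the same way, without a gene past 1.5-fold. Of the 13 glycogen genes 12 had a step below 0, with a median of -0.28 and 6 past the looser limit. Of the 10 trehalose genes 9 had a step below 0, with a median of -0.23 and 4 past that limit. Over all kept genes 54.7% had a step below 0 and 2.45% passed the looser limit downward. The glycogenin gene GLG2 (0.12) and the trehalase gene ATH1 (0.05) were the exceptions in direction, and both lists share members with the general stress list.

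Other stress genes held their centred level. The steps were -0.02 for STF2, a hydrophilin gene; 0.01 for CTT1, the cytosolic catalase gene; 0.02 for UBI4; and -0.03 for YGP1, a cell wall glycoprotein gene. CTT1 was at 31.4 FPKM in the control and at 160, 148 and 123 FPKM over the doses in the authors' deposited tables. DDR2, a multistress gene, went on rising under the looser limit (0.33), as did, outside the list, the hydrophilin gene SIP18 (0.61). PAI3, the proteinase A inhibitor gene, had a step of 0.31, just short of that limit. The level of DDR2 was 3954 FPKM at 0.1 and 4114 FPKM at 0.5 µg/mL in the authors' deposited tables. DDR2, SIP18 and STF2 are short (186, 240 and 255 bp). Protein-coding genes of 78 to 705 bp had a median centred step of 0.11. Of the genes that stood lower, GSY2 and TPS2 are longer (2118 and 2691 bp), but PNC1 is short (651 bp). The part of length in these courses was not tested. The levels of SIP18 in the authors' deposited tables climbed from 184 FPKM in the control to 251, 328 and 413. The carbonic anhydrase gene NCE103 stood 0.67 higher at the step without having been called at either dose; the authors' deposited tables list it at 208 and 273 FPKM.

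The stress response element AGGGG, searched on both strands, was more frequent among the genes called higher than among all genes. It was found before 33.8% of all kept protein-coding genes, before 53.6% of the 881 called higher at 0.1 µg/mL before 59.7% of the 72 that turned back under the looser limit and before 1 of the 10 that went on falling under it. Among the called genes 9.11% of those with it and 7.09% of those without it turned back. The stretches below show it before SOL4 and TPS2, which turned back under the looser limit, and before DDR2 and PAI3, whose steps were above 0, with the matches of AGGGG or its complement CCCCT in capitals.

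SOL4: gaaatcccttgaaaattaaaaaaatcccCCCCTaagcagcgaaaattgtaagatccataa
TPS2: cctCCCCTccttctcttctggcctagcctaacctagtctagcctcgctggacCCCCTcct
DDR2: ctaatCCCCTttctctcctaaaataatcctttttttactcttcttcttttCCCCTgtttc
PAI3: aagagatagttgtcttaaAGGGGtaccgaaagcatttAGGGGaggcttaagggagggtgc

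They lie at chrVII:985818-985877 (plus) for SOL4, chrIV:593400-593459 (plus) for TPS2, chrXV:231949-232008 (minus) for DDR2 and chrXIII:610610-610669 (minus) for PAI3. Over their whole windows TPS2 and DDR2 have 4 matches each, PAI3 has 3 and SOL4 has 1.

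None of the 24 listed regulators moved by 1.5-fold. The centred step was 0.04 for HSF1, 0.06 for MSN2, -0.27 for MSN4 and -0.27 for RPN4. HSF1 was at 49.98 FPKM in the control and at 65.5, 72.8 and 61.7 FPKM over the doses in the authors' deposited tables. TYE7, a regulator of glycolytic genes, had the lowest step of the 24 listed regulators (-0.41) and GCN4, the regulator of amino acid synthesis, the highest (0.27, and 0.00 without centring).

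The proteasome genes did not follow the chaperones. Their 35 members had a median centred step of 0.01 (-0.26 without centring), none moved by 1.5-fold, and 1, the receptor subunit gene RPN13 (0.41), passed the looser limit. The list's median centred change was 0.45, 0.66 and 0.65 over the doses. The number of members called higher nevertheless went from 30 at 0.1 to 8 at 0.5 µg/mL, alongside the shift of all genes. Among all tested genes the share called higher went from 17.6% to 7.49%. The abundant members PRE1 (0.05) and PUP2 (-0.01), both core particle genes, are examples: PRE1 was at 640 FPKM in the control, 1067 at 0.1 and 909 at 0.5 µg/mL in the authors' deposited tables. The Rpn4 element GGTGGCAAA, searched on both strands, lies before 27 of the 35 and before 1.77% of all kept protein-coding genes, and before 0 of the 72 genes that turned back under the looser limit.

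**Figure D4:**
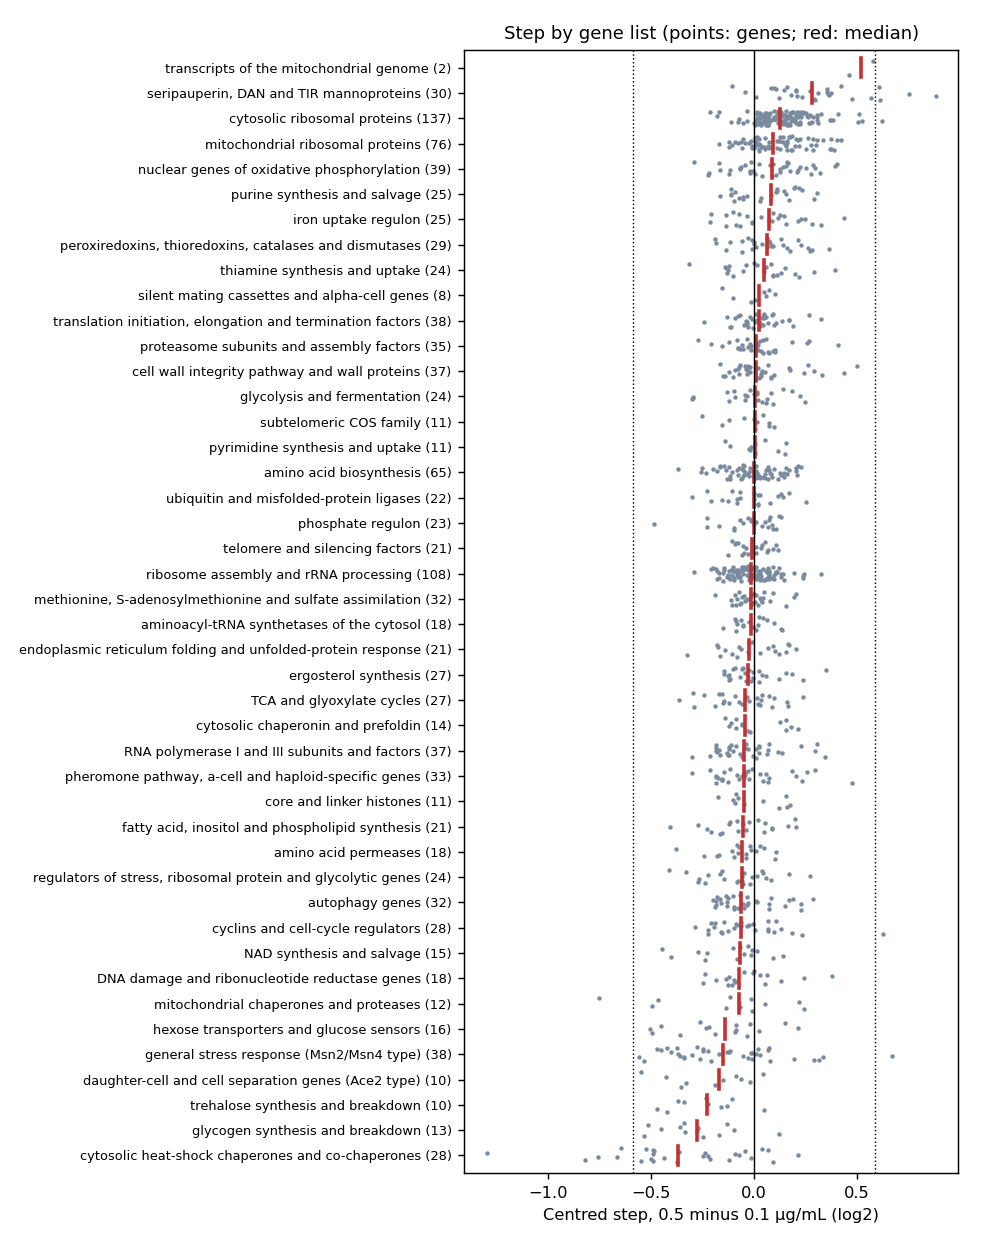
Centred step (horizontal axis, log2) of every kept member of 44 gene lists, ordered by the list's median (red); grey points are genes, the number of kept members is in brackets and dotted lines mark a 1.5-fold step. Heat-shock chaperone, glycogen and trehalose genes lie lowest, and the mannoprotein and ribosomal protein genes lie above 0.

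Ribosomal protein genes, the best-known targets of Rap1, stood slightly higher at the step relative to the typical gene. The 137 genes had a median centred step of 0.12, which was -0.15 without centring. Of them 128 had a step above 0, against 45.3% of all kept genes, and 9 stood higher by 0.32 or more, against 3.05%. The list's median centred change was -0.75, -0.94 and -0.79 over the doses, and 124 members were called lower at 0.1 and 126 at 0.5 µg/mL. The share of all tested genes called lower went from 20.4% to 38.9%. RPL22A was the only one past 1.5-fold (0.62): the authors' deposited tables list it at 675 FPKM in the control and at 328, 251 and 318 FPKM over the doses. RPL16A stood lowest (-0.21), with 264 and then 188 FPKM in the authors' deposited tables.

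Other growth genes kept their centred change. The median step was -0.01 for 108 genes of ribosome assembly, 0.00 for 65 genes of amino acid synthesis and -0.05 for 37 genes of RNA polymerases I and III. The fibrillarin gene NOP1 stood lowest among the abundant assembly genes (-0.29). Glycolytic genes, also Rap1 targets, had a median of 0.01 over 24 genes, and the telomere and silencing factors one of -0.01 over 21.

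Gene length moved with the step. The 992 shortest protein-coding genes (78 to 705 bp) had a median centred step of 0.11 and the 986 longest (from 2175 bp) one of -0.07; 14 of the 16 protein-coding genes higher by 1.5-fold were among the shortest. The chaperone genes are of middle length, with a median of 1194 bp, against 1289 bp over all kept protein-coding genes. Within length classes the ribosomal protein genes had medians of 0.14, 0.12 and 0.14 in the 3 shorter classes, against 0.11, 0.01 and -0.04 for other genes. The part of length in the steps upward was not tested.

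**Figure D5:**
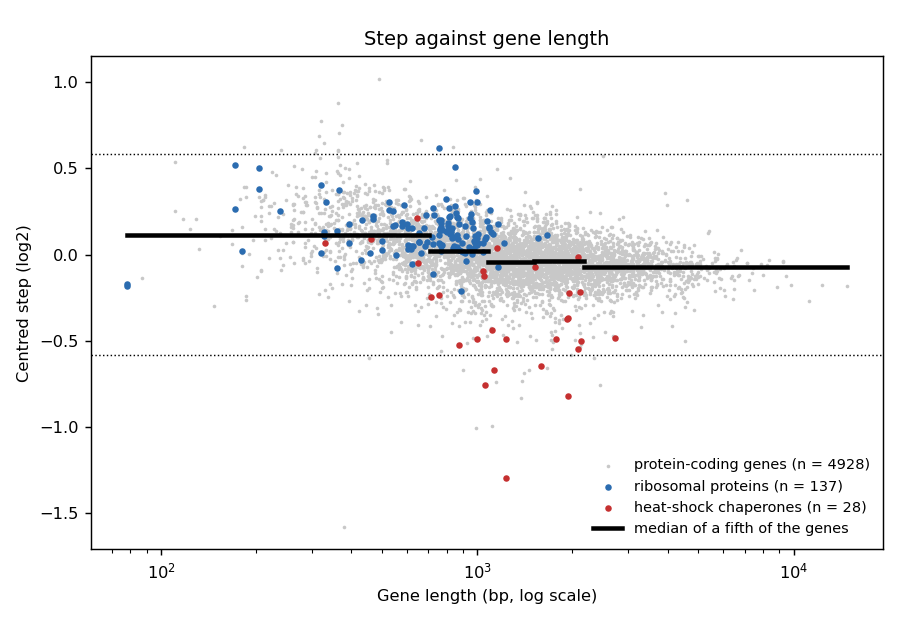
Centred step (vertical axis, log2) against gene length (horizontal axis, base pairs, log scale) for 4928 protein-coding genes; black bars are medians of 5 length classes and dotted lines mark a 1.5-fold step. The bars fall from 0.11 for the shortest genes to -0.07 for the longest, and the chaperone genes (red) lie mostly below the bars of their own length class.

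The genes that turned back after a fall were short, and their share was near that of all genes. Of all kept genes 29 stood higher by 1.5-fold (0.583%), 12 of them tRNA genes called at neither dose. Of 1014 kept genes called lower at 0.1 µg/mL, 5 did (0.493%), with a median length of 366 bp. They were MMO1 (0.78), a mitochondrial protein gene; the zinc-finger gene GAT4 (0.71); TOM7 (0.62), of the mitochondrial import channel; PCL1 (0.62), a G1 cyclin gene; and RPL22A. PCL1 was at 173 FPKM in the control and at 127, 67.2 and 85.4 FPKM over the doses in the authors' deposited tables. GAT4 was low throughout, at 4.33 and 5.83 FPKM at the upper 2 doses in the authors' deposited tables.

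Of the 4 genes that went on rising by 1.5-fold, 3 were short protein-coding genes and 1 was mitochondrial RNA. The mitochondrial small ribosomal RNA 15S_RRNA had a step of 0.81; its levels in the authors' deposited tables were 10.3, 14.6, 25.4 and 36.7 FPKM from the control upwards. The others were SIP18, PAU16 (0.75), at 5.42 and 7.54 FPKM at the upper doses in the authors' deposited tables, and HHY1 (0.61). OLI1, the ATP synthase subunit encoded in mitochondria, had 0.46, with 69.5, 169, 276 and 314 FPKM in the authors' deposited tables. The libraries were made from polyA RNA, and no other mitochondrial transcript of the list but AI1 (0.58, at 4.43 and 5.44 FPKM in the authors' deposited tables) was kept.

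No gene went on falling by 1.5-fold relative to the typical gene, and 10 did without centring. Under the looser limit 10 of the 1014 genes called lower at 0.1 µg/mL did (0.99%), a smaller share than the 2.45% of all kept genes that stood lower by that much. They are named here after their values were seen: DSE1 (-0.55), RGS2 (-0.51), ECM13 (-0.47), BNA1 (-0.45), DSE3 (-0.43), BSC2 (-0.41), TPO1 (-0.39), ILV3 (-0.37), GDT1 (-0.35) and ERC1 (-0.32). DSE1, a daughter-cell gene, went from 495 FPKM in the control to 256, 160 and 90.02 in the authors' deposited tables. ILV3, an enzyme of branched-chain amino acid synthesis, went from 918 FPKM to 497, 327 and 209 in the authors' deposited tables. BNA1, an enzyme of NAD synthesis, went from 255 to 109, 69.6 and 42.1 FPKM in the authors' deposited tables. The 10 kept daughter-cell and cell separation genes had a median step of -0.17, with 4 lower by 0.32 or more, against 2.45% of all kept genes. Of the 10, 4 were called lower at 0.1 and 9 at 0.5 µg/mL, while the share of all tested genes called lower went from 20.4% to 38.9%.

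BSC1 and FMP48 were above the control at 0.1 µg/mL without being called, and were called lower at 0.5. At 0.01 µg/mL BSC1 had been called higher, and FMP48 had not been called. BSC1, a gene related to cell-surface glycoproteins, was at 34.0 FPKM in the control, 60.9 at 0.01, 44.7 at 0.1 and 18.4 FPKM at 0.5 µg/mL in the authors' deposited tables (step -1.004). The authors' q for BSC1 was 0.000608 at 0.01, 0.0841 at 0.1 and 0.000273 at 0.5 µg/mL in the authors' deposited tables. FMP48, a putative kinase gene of mitochondria, was at 68.8, 68.2, 88.7 and 36.8 FPKM in the authors' deposited tables (step -0.99). The 16 kept hexose transporter and glucose sensor genes had a median step of -0.14, with 13 below 0 and 3 above it. Of these HXT4, HXT7, HXT6 and HXT3 passed the looser limit downward (-0.50, -0.50, -0.45 and -0.36), HXT6 and HXT7 being near-identical, and HXT2 stood highest (0.21). For comparison, 54.7% of all kept genes had a step below 0 and 2.45% passed that limit downward.

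The remaining genes past 1.5-fold were called at neither dose. On the low side they were the tRNA genes SUP51 and EMT2 and the reading frames JIP3 (-1.58), OPI11 (-0.70) and SLM6 (-0.60). JIP3 overlaps the cell wall sensor gene MID2 and SLM6 overlaps REI1, a ribosome assembly gene, and without a statement on strand the reads of overlapping genes cannot be told apart. The 20 on the high side were 12 tRNA genes, HED1, a gene of meiotic recombination (1.02), NCE103, the seripauperin genes PAU10, PAU12 and PAU13, LCL1, and the reading frames VPS63 (0.65) and IRC13 (0.69), which overlap YPT6 and SNR17A. HED1 was at 3.01 and 5.05 FPKM in the authors' deposited tables, at the edge of the level required.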

How the data were processed

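RNA from 12 samples in 4 groups of 3 was used as deposited. FastQC, Bowtie2 and Cuffdiff with build R64 are named, per the submitters' processing notes; their versions and settings, the annotation and any use of strand are not stated there or in the headers. The authors' deposited tables give, per the file headers, 1 level per group, a q-value and a log2 fold change. The unit of the levels, FPKM pooled over the samples of a group by the authors, was inferred from the column names. The labels do not say whether samples of a group were separate cultures, so the q-values may measure technical spread.

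Of 5085 genes, 5017 matched RefSeq R64 by identifier; 2 symbols turned into dates were restored, and 3 emptied lines in each table are not analysed here. Steps were computed with Python 3.11.15, pandas 2.3.3 and numpy 2.4.6, sequences read with pyfaidx 0.9.0.4 and figures drawn with matplotlib 3.10.9; the calculation was tested on simulated data. No pseudocount was used.

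Genes named are the 10 largest steps each way with a level of at least 20 and an authors' call, the 6 largest of each class, the extremes of 44 lists, abundant members and 16 regulators. Others, such as HSP42, APJ1, CTT1 and UBI4, were named after their values were seen. The lists, their members and the rules were chosen with earlier results of these data known.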

Additional observations from a re-analysis of the deposited data

How the results depend on the processing

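Without centring, 12 genes stood higher and 134 lower by 1.5-fold, 77 turned back after a rise, 0 after a fall, 0 went on rising and 10 went on falling; the list medians were -0.65 for chaperones, -0.43 for general stress, -0.26 for the proteasome, -0.29 for ribosome assembly, -0.27 for amino acid synthesis and, reversed, -0.15 for ribosomal proteins. Centring on summed levels gave 19 higher, 37 lower, 25 and 2 that turned back, 2 that went on rising and 2 that went on falling. A limit of 0.32 on the log2 scale gave 152, 122, 72, 29, 19 and 10 in the same order, and a limit of 2-fold gave 8, 5, 1, 0 and 0, with BTN2 the 1 left. With the earlier direction from the call at 0.01 µg/mL, 3 genes turned back after a fall and 1 went on rising; from a centred change of 1.5-fold at 0.1 µg/mL, 9 went on rising and 1 went on falling. Among alternatives chosen after seeing the data, protein-coding genes alone gave 16 higher, and centring within classes of gene length gave 9 higher and 2 that went on rising; in each case the cause was not tested. All 14 genes that turned back after a rise were kept under each setting except the limit of 2-fold, the direct ratio of the doxycycline levels and the length classes; the last 2 lost RIE1. Centring on genes called in no table, a minimum level of 1 or 20, a pseudocount of 1 and the direct ratio moved none of the 6 counts by over 1.5 times and none of the 6 list medians by over 0.1.

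No paired analysis was possible because the levels are pooled over the samples of a group; samples were not left out in turn for the same reason. The depth is unknown, and no error is given for a level.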

Other observations

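Transfer RNA genes held most of the largest steps in the tables. Of 23 kept tRNA genes, 12 stood higher by 1.5-fold and 2 lower, with steps from -2.26 (SUP51) to 2.14 (TRT2) and a median of 0.74; 0 of them were called by the authors at either dose, and the libraries were made from polyA RNA. In the authors' deposited tables TRT2, a threonine tRNA gene, was at 96.4 FPKM at 0.1 and 350 FPKM at 0.5 µg/mL, and SUP51, a leucine tRNA gene, at 110 and 18.9 FPKM.

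The seripauperin, DAN and TIR mannoprotein genes, cell wall genes often found near chromosome ends, had a median centred step of 0.28 (0.01 without centring) over 30 genes, of which 28 were above 0 and 12 higher by 0.32 or more on the log2 scale (3.05% of all kept genes were). PAU10 had the highest step (0.88), at 9.50 and 14.4 FPKM in the authors' deposited tables. The genes are short and near-identical, so that reads may be split among them. The 177 other protein-coding genes within 25 kb of a chromosome end had a median of 0.00, against -0.02 for genes farther in.

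The 37 kept cell wall genes had a median centred step of 0.01, with 19 above 0 and 18 below. Of them, 3 passed the looser limit upward and 0 downward. CWP2 (0.50), the highest of that list, and SED1 (0.44), which encode abundant wall mannoproteins, stood higher at the step. CWP2 is short (279 bp) and was called at none of the doses. SED1 went from 4831 FPKM in the control to 9275, 10862 and 12147 over the doses in the authors' deposited tables.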
